A study of Mus musculus with 4 samples.

Results

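Of the 101 regions that DDX5 ChIP-seq found in both lines of cultured mouse undifferentiated spermatogonia, 4 carry the gene names *Amdhd2*, *Arhgap12*, *4933434E20Rik* and *Zbtb25*. These genes were taken because the study names them as bound by both DDX5 and PLZF, and each of them has 1 peak in the list. All 4 peaks lie over the transcription start site (TSS) of their gene, and together they are 4 of the 31 peaks that HOMER, the program used for peak finding, placed in its promoter-TSS class. The other 27 promoter peaks are the comparison used throughout.

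The data came from 4 libraries, namely 2 made after immunoprecipitation with an antibody against DDX5 and 2 made from input chromatin to which no antibody had been added. The cells were wild type, were derived from testis of CBA mice as separate lines and received no treatment, and they were maintained with GDNF, bFGF, EGF and insulin on mouse embryonic fibroblast feeders that mitomycin had stopped from dividing. Feeder chromatin may therefore be present in ChIP and input alike, and its share was not measured. The list holds 1 score for each peak over both ChIP libraries, so no spread between lines, no enrichment over input and no depth of a library can be given, and no test was made. Each value below is a description of this list. Since it holds no expression values, the labelled cell type was not checked against marker genes. PLZF binding sites, ChIP-qPCR and RNA levels were not analysed here, so what follows describes the DDX5 side of these promoters.

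DDX5 is a DEAD-box RNA helicase that takes part in RNA processing and also acts as a partner of transcription factors. PLZF, the product of *Zbtb16*, is a transcription factor with a BTB domain and zinc fingers that spermatogonia need for self-renewal. An E-box is a short palindromic DNA element, and its form CACGTG is read by factors with a basic helix-loop-helix domain, among them the USF, MYC and TFEB families. The CLEAR element, known from promoters of lysosomal genes, is an E-box of this form with preferred neighbours, searched for here as CACGTG preceded by GT and followed by AC with at most 1 mismatch over the 10 bases.

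All 4 peaks held CACGTG, and they held 12 copies in all. The sequences that carry this result are shown for 3 of the genes on the strand of the gene and 5′ to 3′, with CACGTG in capitals and 10 bases on each side, as read from the GRCm38 (mm10) reference. The number in each name is the distance in bp from the TSS to the first base of the E-box, negative upstream. The *Amdhd2* site lies at chr17:24163741-24163766 on the minus strand, the 4 sites of *4933434E20Rik* lie on the plus strand at chr3:90052489-90052514, chr3:90052591-90052616, chr3:90052711-90052736 and chr3:90052796-90052821, and the *Zbtb25* site lies at chr12:76369569-76369594 on the minus strand.
Amdhd2 at -23: agctgagagtCACGTGatgcgacctg
4933434E20Rik at -303: ccgcccctgtCACGTGatataagatt
4933434E20Rik at -201: cgtccctcagCACGTGacgcgaaagg
4933434E20Rik at -81: ccgcctccatCACGTGactccagtaa
4933434E20Rik at 4: ggacataagtCACGTGgcggaggggg
Zbtb25 at -24: gcagtccggtCACGTGggccgggcgc

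The other 2 E-boxes of *Amdhd2* are shown in the 98 bases of its peak that no annotated transcript covers, at chr17:24163767-24163864 on the minus strand, because they lie between the end of 1 gene and the start of the next. Their first bases are at -67 and -50, so that the 3 E-boxes of this promoter are packed into 50 bp.
Amdhd2 between the genes: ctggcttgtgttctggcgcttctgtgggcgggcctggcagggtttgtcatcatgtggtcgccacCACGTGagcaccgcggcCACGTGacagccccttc

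*Amdhd2* encodes the enzyme that removes the acetyl group from phosphorylated N-acetylglucosamine, a step in the breakdown of amino sugars. Its peak had the highest score of the 4, 14.05, which ranked 16 of all 101 peaks and 11 of the 31 promoter peaks. The region is 762 bp long (chr17:24163277-24164038) and its centre lies 76 bp downstream of the TSS of transcript NM_172935, at position 24163733 on the minus strand. Exons of *Amdhd2* make up 208 bp of it, of which 139 bp are coding and 69 bp are 5′ UTR, and a further 249 bp are intron. On the upstream side the peak reaches 174 bp into the 3′ UTR of *Atp6v0c*, which encodes a membrane subunit of the proton pump that acidifies lysosomes. Both genes are on the same strand, with 131 bp between them in RefSeq, and the nearest start site of *Atp6v0c* is 5076 bp away from that of *Amdhd2*.

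*4933434E20Rik* is a RIKEN gene for which no role is given here. Its peak scored 9.49, rank 31 of 101 and 22 among promoter peaks, and it spans 643 bp (chr3:90052379-90053021) with its centre 102 bp upstream of the TSS at 90052802 on the plus strand. It covers 220 bp of the first exon, all 5′ UTR. The same region holds start sites of *Ubap2l*, which encodes a ubiquitin-associated protein of stress granules and is transcribed from the opposite strand. The nearest of these start sites in RefSeq is 287 bp from that of *4933434E20Rik*, and 137 bp of the peak lie in *Ubap2l* as RefSeq annotates it. GENCODE has a further *Ubap2l* start at 90052628, only 174 bp from the listed start. HOMER in fact took a *Ubap2l* transcript as the feature under this peak while naming *4933434E20Rik* as the nearest gene, so the peak cannot be assigned to 1 of the 2 genes. A longer curated transcript of *4933434E20Rik* starts upstream of the peak, at 90051636. Of the 4 peaks, this was the only 1 with the TSS of another protein-coding gene inside it, beside 3 of the other 27 promoter peaks (11.1%).

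*Zbtb25* encodes a transcription factor with a BTB domain and zinc fingers, of the same family as PLZF. It had the lowest score of the 4, 6.02, which ranked 63 of 101 and 30 of 31 among promoter peaks. The only promoter peak below it was at *Usf2*, which encodes a helix-loop-helix factor that binds CACGTG, with a score of 5.635. The *Zbtb25* peak is the shortest of the 4, 544 bp (chr12:76369410-76369953), with its centre 121 bp upstream of the TSS at 76369560 on the minus strand. For transcript NM_028356 it covers 121 bp of 5′ UTR, the whole first exon, and 30 bp of intron. A further RefSeq transcript, NM_001172104, starts inside the peak at 76369464, and 55 bp of its 5′ UTR are covered. *Zbtb1*, another BTB zinc finger gene, starts in RefSeq on the opposite strand 960 bp away, and that start lies 567 bp beyond the edge of the peak.

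*Arhgap12* encodes a GTPase-activating protein, which switches off small signalling GTPases. Its peak had a score of 9.455, next in rank to that of *4933434E20Rik*, at 32 of 101 and 23 among promoter peaks. The region is the longest of the 4, 910 bp (chr18:6135690-6136599), and its centre lies 46 bp upstream of the TSS at 6136098 on the minus strand. It covers the whole first exon, 295 bp of 5′ UTR, and 114 bp of intron, and no other gene starts in it. Its E-boxes lie at -131, -82, -24 and 79, so that they are spread over 216 bp around the TSS, and those at -131 and 79 are CLEAR elements with the mismatches C10G and A9G, counted from the 5′ end of the consensus. Its score per kb was 10.4, the lowest of the 31 promoter peaks, although 9 of the other promoter peaks are longer. *Amdhd2* had 18.4, *4933434E20Rik* 14.8 and *Zbtb25* 11.1.

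**Figure D1:**
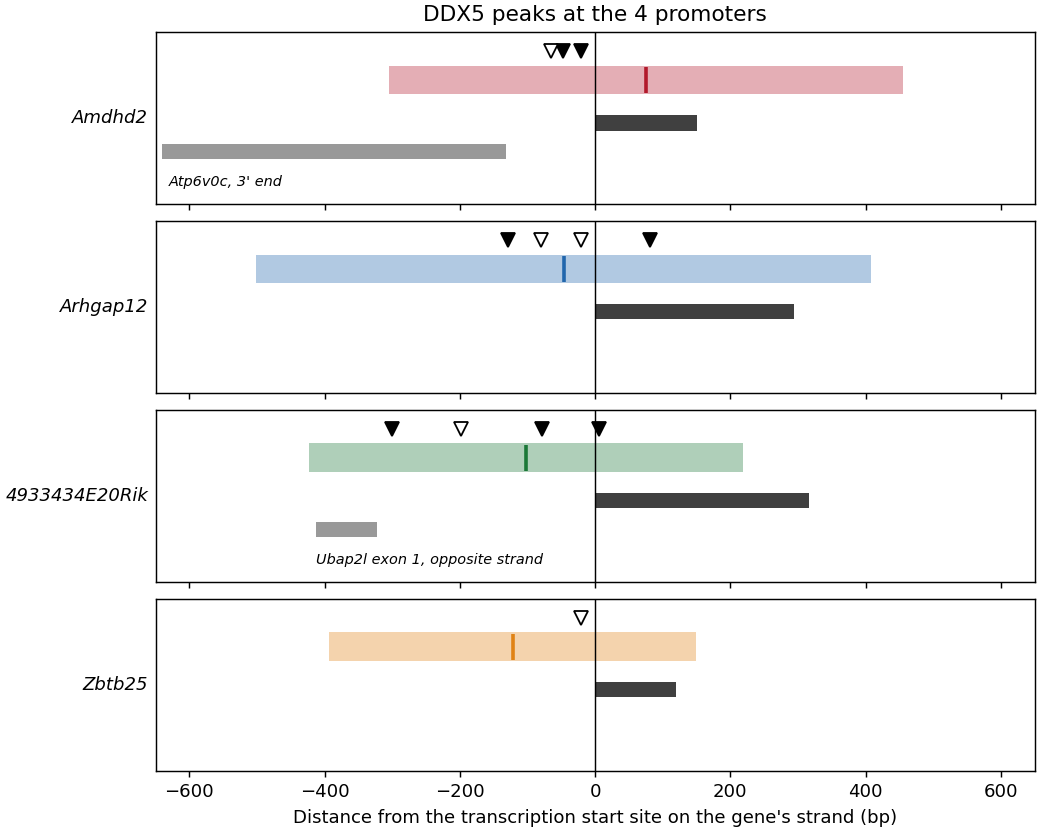
The 4 DDX5 peaks drawn to scale on the strand of their gene, with distance from the TSS in bp on the horizontal axis. Coloured bars are peaks, the vertical tick on each bar is the peak centre, black boxes below the line are first exons and grey boxes are other genes in the window (the box of *Atp6v0c* goes on beyond the left edge). Triangles are CACGTG sites, filled where at most 1 base differs from the CLEAR element, and 10 of the 12 lie upstream of the TSS.

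Compared with the other promoter peaks, the 4 peaks were not among the highest. Their median score was 9.47 (range 6.02 to 14.05), while the other 27 had a median of 12.1 and reached from 5.635 to 41.9. *Amdhd2* alone of the 4 was above that median. All 101 peaks had a median of 6.94, so that the promoter peaks of *Amdhd2*, *4933434E20Rik* and *Arhgap12* were above the middle of the whole list and that of *Zbtb25* was below it. The ratio of the median of the 4 to that of the other promoter peaks was 0.786. The difference has no replicate error to be set against. In length the 4 had a median of 702 bp beside 816 bp, and 2 of the 4 centres were within 100 bp of the TSS beside 21 of the other 27.

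**Figure D2:**
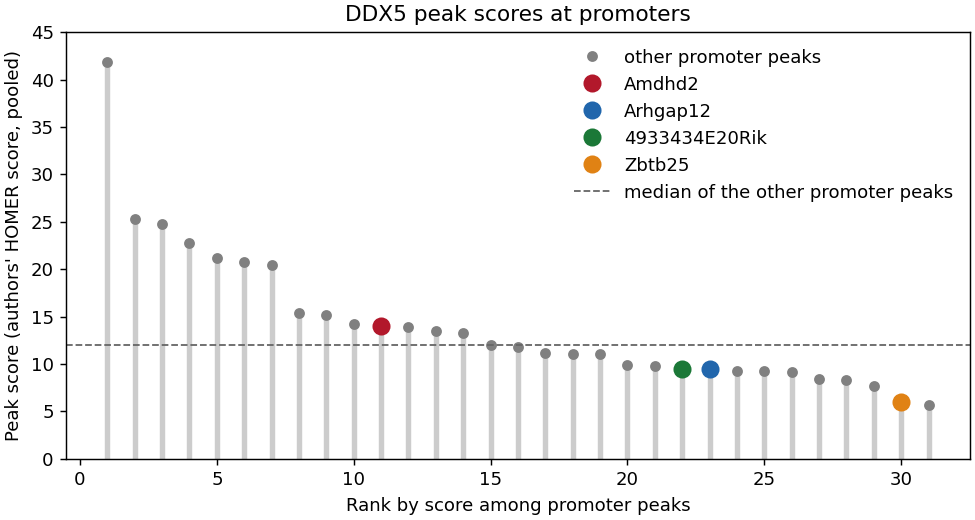
Score of each of the 31 promoter peaks (vertical axis, the pooled HOMER score) by rank (horizontal axis), with the 4 genes in colour, the other promoter peaks in grey and their median of 12.1 as a dashed line. *Amdhd2* (14.05) is above the line, and *4933434E20Rik* (9.49), *Arhgap12* (9.455) and *Zbtb25* (6.02) are below it.

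Among the 4 peaks, the order by number of E-boxes was not the order by score, although *Zbtb25* was lowest in both. In the other promoter peaks the median score was 11.8 with 1 copy, 11.1 with 2, 11.4 with 3 and 22.8 with 4 or more. *Arhgap12* and *4933434E20Rik* held 4 copies each, *Amdhd2* 3 and *Zbtb25* 1, with a median of 3.5 beside 2 in the other promoter peaks. The other promoter peaks with 4 or more copies number 5, and their scores ran from 20.45 to 41.9, so *Arhgap12* and *4933434E20Rik* had the lowest scores of all 7 promoter peaks with that many sites. *Amdhd2* fell within the range of the 6 other peaks with 3 copies, 8.265 to 25.3. *Zbtb25* lay below the range of the 5 other peaks with 1 copy, 8.4 to 14.25.

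**Figure D3:**
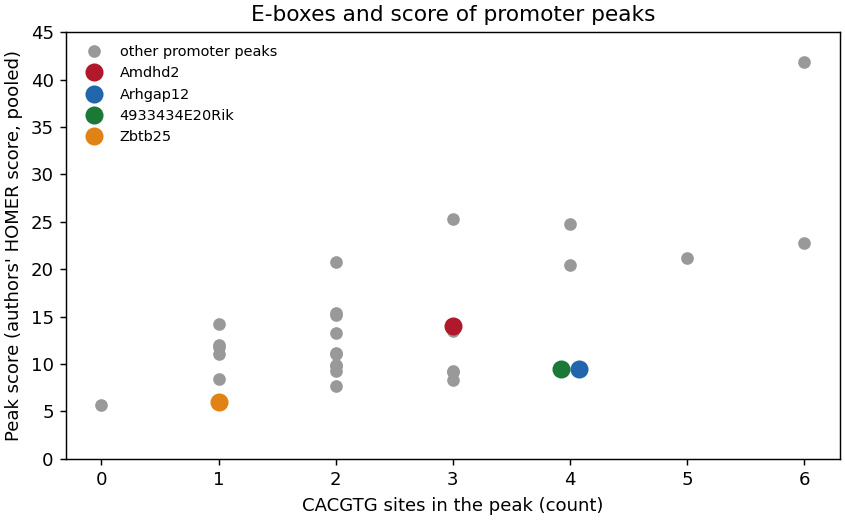
Score of the 31 promoter peaks (vertical axis, pooled HOMER score) against the number of CACGTG sites in the peak (horizontal axis), with the 4 genes in colour, shifted slightly sideways where they would overlap, and the other 27 peaks in grey. At 4 sites, *Arhgap12* and *4933434E20Rik* sit near 9.47, below the other peaks with 4 or more sites, which start at 20.45.

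Each gene was also set beside the peak closest to it in score among the other 27 promoter peaks. *Dvl2*, which encodes a signalling protein of the Wnt pathway, had 13.855 beside 14.05 for *Amdhd2*, and both peaks held 3 E-boxes. *Vps26a*, which encodes a subunit of the retromer complex, was closest among the other 27 to both *Arhgap12* and *4933434E20Rik*, which were closer still to each other (9.455 and 9.49), with a score of 9.305 and 3 E-boxes. *Usf2* was closest to *Zbtb25* and was the 1 promoter peak of the 31 without CACGTG.

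Since 26 of the other 27 promoter peaks (96.3%) also held CACGTG, its presence does not set the 4 apart from them. It was rarer over promoters in general. In windows of the same length and place at 21000 protein-coding genes, CACGTG was present at 14.1% for the window of *Amdhd2*, 16.2% for *Arhgap12*, 12.7% for *4933434E20Rik* and 11.5% for *Zbtb25*. Windows with at least as many copies as the peak itself numbered 52 (0.248%) for *Amdhd2*, 15 (0.0714%) for *Arhgap12* and 11 (0.0524%) for *4933434E20Rik*, but 2420 (11.5%) for *Zbtb25*, whose single copy is the least that counts as present.

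A CLEAR element with at most 1 mismatch was present in 3 of the 4 peaks, beside 20 of the other 27 (74.1%). *4933434E20Rik* had 3 such elements, *Amdhd2* 2, *Arhgap12* 2 and *Zbtb25* none, and among matched windows 3.13%, 3.42%, 2.98% and 2.8% held at least 1 for the windows of *Amdhd2*, *Arhgap12*, *4933434E20Rik* and *Zbtb25*. No element matched the consensus exactly. Counting from 1 at the 5′ end on the strand of the gene, the mismatches of the *Amdhd2* elements at -23 and -50 were C10T and T2C, and those of *4933434E20Rik* at -303, -81 and 4 were C10T, G1A and A9G. In *Zbtb25* the E-box departed from the consensus at both bases that follow CACGTG, A9G and C10G.

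The base next to the E-box was shared more closely. In all 12 sites of the 4 peaks CACGTG was preceded by T on at least 1 strand, beside 61 of 68 sites (89.7%) in the other promoter peaks and 1043 of 1891 sites (55.2%) in the promoters of all protein-coding genes, taken from 250 bp before to 50 bp after the TSS. With T before it on both strands, 4 sites (33.3%) remained in the 4 peaks, beside 29 (42.6%) in the other promoter peaks and 278 (14.7%) in all promoters. In both respects the 4 peaks resembled the other DDX5 promoter peaks, and the sites are too few to set them apart.

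With the start sites of RefSeq, the 3 minus-strand genes had an E-box at nearly the same place. *Amdhd2* had a site at -23, and *Arhgap12* and *Zbtb25* each had 1 at -24, measured from the listed TSS. In the peak of *4933434E20Rik* no site had that place relative to its own RefSeq start, but the first site lay at -24 from a RefSeq start of *Ubap2l*. None of the other 27 promoter peaks (0 of 27) had a site at these 2 positions, and 22 of the 21000 protein-coding genes (0.105%) did. This pattern was chosen after the sites were seen. In the wider band from -30 to -15 the 3 genes stood beside 8 of the other 27 peaks, and 171 genes overall (0.814%). The place depends on the annotated start, and of these 3 genes *Arhgap12* alone had the site at -24 with the starts of GENCODE as well. *Amdhd2* then had its closest sites to this place at -26, -17 and -34 from different starts, and the site of *Zbtb25* lay at 18 or -120. The place at -120 was also that from the further RefSeq start of *Zbtb25* inside the peak. *4933434E20Rik* had a site at -23 from its GENCODE start at 90052829, so that 2 of the 4 peaks had a site at -23 or -24, but not the same ones. The other 27 peaks were not examined with GENCODE starts.

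**Figure D4:**
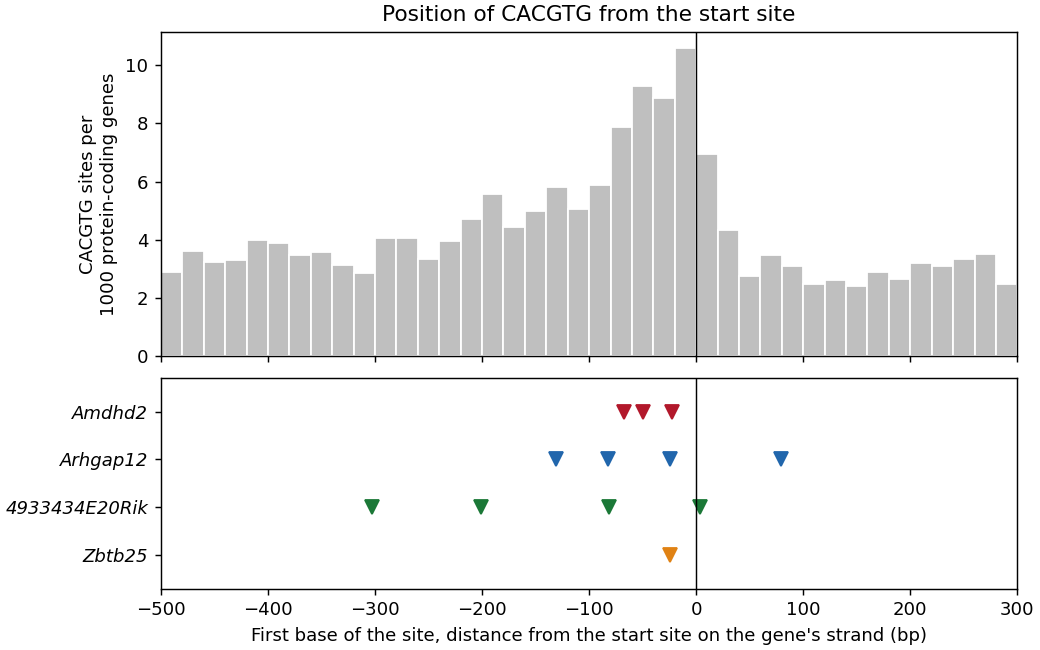
Upper panel, CACGTG sites per 1000 protein-coding genes (vertical axis) in bins of 20 bp by distance from the TSS (horizontal axis, bp), highest at 10.6 in the bin just upstream of the TSS. Lower panel, the 12 sites of the 4 peaks on the same axis, measured from the RefSeq start, with a site at -23 or -24 in *Amdhd2*, *Arhgap12* and *Zbtb25*.

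The 4 promoters differed in base composition. GC content was 71.7% in *Zbtb25*, 64.2% in *4933434E20Rik*, 64.1% in *Arhgap12* and 60.4% in *Amdhd2*, beside a median of 63.1% in the other promoter peaks (53.2% to 80.5%). The ratio of observed to expected CpG, which is high in unmethylated CpG islands, was 1.09 in *4933434E20Rik*, 1.02 in *Zbtb25*, 0.819 in *Arhgap12* and 0.559 in *Amdhd2*. *4933434E20Rik* was above 26 of the other 27 promoter peaks and *Amdhd2* below 26 of them, so the 4 take up nearly the whole range, 0.542 to 1.11. Among matched windows 55.3% of genes had a ratio at least as high as *Amdhd2*, and 0.776% one at least as high as *4933434E20Rik*. Repeats that the reference marks made up 26.3% of the *4933434E20Rik* peak, 16.0% of that of *Zbtb25*, 5.91% of that of *Amdhd2* and 2.53% of that of *Arhgap12*, beside a median of 5.81% in the other promoter peaks.

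Other promoter elements gave no feature common to the 4 alone. All 4 peaks held the GC box GGGCGG, the site of SP-family factors, and so did all of the other 27. *Arhgap12* had 8 copies, *4933434E20Rik* 5, *Zbtb25* 3 and *Amdhd2* 2. CCAAT, read by NF-Y, was present in *Arhgap12*, with 4 copies, and in *Amdhd2*, with 1, beside 14 of 27. The ETS-type motif CCGGAA was present in *Arhgap12* only, beside 12 of 27, and TATAAA in none of the 4 and 1 of 27. TGACG, the CREB half-site, was present in *4933434E20Rik*, *Arhgap12* and *Zbtb25*, beside 20 of 27. All motifs were searched on both strands, and a match is a stretch of letters, not a bound site.

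Of the gene families fixed for *Amdhd2*, *Arhgap12* and *Zbtb25*, no other gene had a peak. Lists of this size would seldom hold a further one, since only 85 of all 21774 protein-coding genes were assigned a peak. Of 15 genes of amino sugar metabolism, *Amdhd2* alone had a peak, although the promoters of 3 of them (20.0%) held CACGTG, and *Gnpda1* and *Nanp* also had a CLEAR element. *Arhgap12* was the 1 peak among 34 genes whose names start with Arhgap, 3 of which had CACGTG in the promoter (8.82%). *Zbtb25* was the 1 peak among 41 BTB zinc finger genes of the Zbtb series, of which 6 had CACGTG (14.6%). These counts include *Amdhd2*, *Arhgap12* and *Zbtb25* themselves, around which the lists were made, so the shares are raised by them. Over all protein-coding genes, 8.09% of promoters held CACGTG. Promoters here were taken from 250 bp before to 50 bp after the TSS. Of 21 genes for PLZF, DDX5 and related or E-box factors, *Usf2* had a promoter peak, and *Mga*, which encodes a partner of MAX, was the nearest gene of a peak with a score of 8.575 whose centre was at -23620 bp from its TSS. The genes of the 2 proteins had no peak: the nearest to *Zbtb16* was 286287 bp away and the nearest to *Ddx5* was 6586049 bp away.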

How the data were processed

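The deposited list holds 101 peaks found in both DDX5 ChIP libraries of mouse undifferentiated spermatogonia. Per the labels and the study's methods, the authors aligned single-end reads of 50 bp with Bowtie2 2.2.5 (mm10) and filtered them with SAMtools 1.3.1. They used HOMER with its histone parameters to find peaks, and HOMER also annotated them. Regions in the list were 501 to 1549 bp long. A peak centre is the middle of its region, not a mapped binding position. The peak score in the deposited list is the authors' HOMER score, 1 value over both libraries, and how it was combined is not given in the sources used here. The authors also gave the distance in bp between each peak centre and the TSS.

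Coordinates, class and gene of each peak are those of the list. Sequence and RefSeq transcripts came from GRCm38.p6, the same build. Motifs were counted on both strands with Python 3.11.15, numpy 2.4.6, pandas 2.3.3 and pysam 0.24.0, after the reference was indexed with samtools 1.23.1, and the counts were tested on simulated data. Figures were drawn with matplotlib 3.10.9. Shares of matched windows used windows with the peak's length and place at 21000 protein-coding genes. Shares of promoters in the gene lists, and of sites by the base next to the E-box, used 250 bp before to 50 bp after the TSS. The 2 kinds of share differ in window and are not to be set against each other.

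Genes named are the 4, genes whose TSS or exon lies in their peaks, genes of 4 lists with a peak, *Zbtb16*, *Ddx5* and the other promoter peak nearest in score. *Zbtb1*, *Gnpda1* and *Nanp* were named after their values were seen. The 4 genes and the lists were chosen with earlier results of these data known. Peaks are not replicates, so no test was made.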

Additional observations from a re-analysis of the deposited data

How the results depend on the processing

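The 4 peaks had a lower median score than the other promoter peaks under every setting tried. The ratio of medians was 0.786 and moved to 0.875 per kb of peak, 0.644 against other promoter peaks with a score of at least 10 and 0.802 against peaks centred within 1 kb of a TSS. The cut at 10 was made on the score itself and only in the comparison group, so the ratio of 0.644 could only be lower and adds nothing. Leaving out *Amdhd2* or *4933434E20Rik* gave 0.785, and leaving out *Arhgap12* or *Zbtb25* gave 0.788. With central 200 bp only, 6 of the 12 E-boxes were counted and the median GC content was 68.8%. An exact CLEAR match was found in 0 peaks. A TSS of another gene within 1 kb of the centre was found for 2 peaks. With GENCODE starts, 2 peaks in place of 3 had a site at -23 or -24, and 1 of them, *Arhgap12*, was among the 3. No paired analysis was possible because the list gives only pooled values, for which reason no library could be left out either. Depth was not known.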
